A study of Rattus norvegicus with 16 samples.

Results

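The genes described here are 10 genes that respond to glucocorticoids or to cellular stress, Fkbp5, Tsc22d3, Sgk1, Zbtb16, Mt1, Mt2A, Cdkn1a, Pdk4, Hif3a and Lcn2, in the dorsal root ganglia (DRGs) of rats with a tumor in the tibia. They were picked by exact gene symbol, and all 10 were found among the 21021 genes of the expression tables. Adult female Sprague-Dawley rats received Walker 256 rat mammary carcinoma cells in the left tibia (tumor cell implantation, TCI), and their DRGs were taken 1, 7 or 14 days later. The sham group was sampled on day 14, so the day 1 and day 7 groups also differ from it in the time since surgery, and the tumor and the time cannot be told apart there. Per the labels the sham injection was PBS, while the study's methods describe boiled tumor cells, and there was no group without surgery. The pooled L3-L5 DRGs of the implanted side of 1 rat formed 1 sample, with 4 samples in each of the 4 groups. Sample 2 of day 1 and sample 3 of day 7 were left out by the study's text. They were likewise kept out of the group values below (14 samples), which leaves 3 samples on each of these days, and their values are given beside the others.

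Glucocorticoids are steroid hormones that the adrenal cortex releases under stress and on a daily rhythm. They cross the cell membrane and bind the glucocorticoid receptor (Nr3c1), which is held in the cytoplasm by heat shock proteins and cochaperones. The loaded receptor moves to the nucleus and switches on a set of genes that many tissues share, among them feedback regulators of the receptor itself, anti-inflammatory proteins and metabolic enzymes. Several of these genes also answer to other signals, such as metals, DNA damage, fasting, low oxygen or cytokines. In the DRG, which holds the cell bodies of sensory neurons with satellite glia, Schwann cells and resident macrophages, many of these cell types carry the receptor. The summed FPKM of 8 sensory neuron markers lay between 7309 and 7998 in sham, between 7420 and 8049 in day 1, between 6493 and 6921 in day 7 and between 6561 and 7851 in day 14 samples, with every day 7 sample below every sham sample. In the left-out sample 3 of day 7 it was 4529. T cell markers (median sum 1.22 FPKM in sham and 45.7 FPKM in day 7 samples) and fibroblast markers (487 and 1143 FPKM) were higher on day 7, and the part of these cell types in the levels of the 10 genes was not tested.

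Expression is given as FPKM, the number of sequenced fragments of a gene scaled by its transcript length and by the sample's total. This allows a rough comparison between genes and between samples. Levels stay relative to the rest of a sample's RNA, and FPKM summed to 436572 in sample 2 of sham and to 473959 in sample 3 of day 7. In sham DRG the mean level ran from 125 FPKM for Tsc22d3 to 0.303 FPKM for Hif3a. Sgk1 (15.8 FPKM), Mt1 (13.6 FPKM) and Fkbp5 (8.49 FPKM) followed Tsc22d3. Lcn2 (4.52 FPKM), Mt2A (4.38 FPKM) and Cdkn1a (3.98 FPKM) came next and overlapped each other in their 4 samples. Pdk4 (2.33 FPKM) and Zbtb16 (2.26 FPKM) overlapped likewise.

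**Figure D1:**
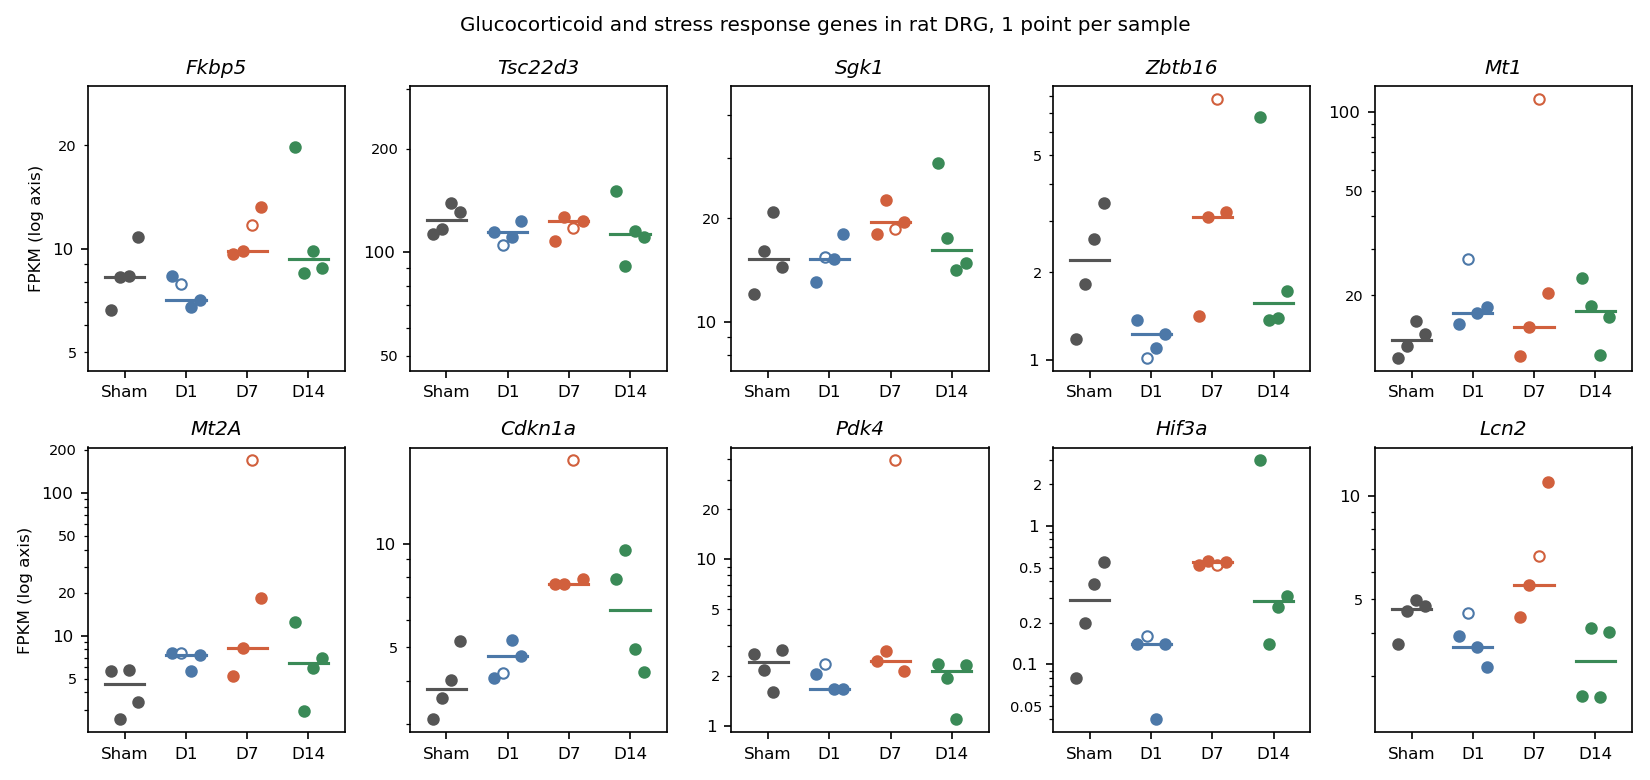
FPKM of the 10 genes in every sample, on log axes, by group (sham, TCI day 1, day 7 and day 14). Filled points are the 14 samples used, open points the 2 left-out samples, and lines the medians of the filled points. The 3 filled day 7 points of Cdkn1a lie above all sham points, 1 day 14 sample stands above the other 3 for Fkbp5, Zbtb16 and Hif3a, and the open day 7 point stands highest for Mt1, Mt2A and Pdk4.

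Cdkn1a, which encodes the cyclin-dependent kinase inhibitor p21, was the only one of the 9 tested members that rose past the test against sham, and it did so on day 7. Against sham, 0 of the 9 tested members passed an adjusted p of 0.05 on day 1 in limma's moderated test, where 0% of all 14023 tested genes did. Also at an unadjusted p under 0.05 the count on day 1 was 0 of 9, beside 5.23% of all genes. On day 7, 1 of 9 members passed (Cdkn1a), beside 17.9% of all genes, and 2 of 9 (Cdkn1a and Mt2A) had an unadjusted p under 0.05, beside 31.2%. By day 14 the count was 0 of 9 beside 15.1% of all genes, and at an unadjusted p under 0.05 it was 1 of 9 (Cdkn1a) beside 29.9%. Hif3a reached 1 FPKM in 1 sample only and was not tested. For days 1, 7 and 14 the 9 tested members had median log2 fold changes of -0.10, 0.33 and 0.21, beside 0.00, 0.04 and 0.03 for all tested genes. In whole ganglia a change in the number of cells of a type and a change in the RNA per cell cannot be told apart.

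**Figure D2:**
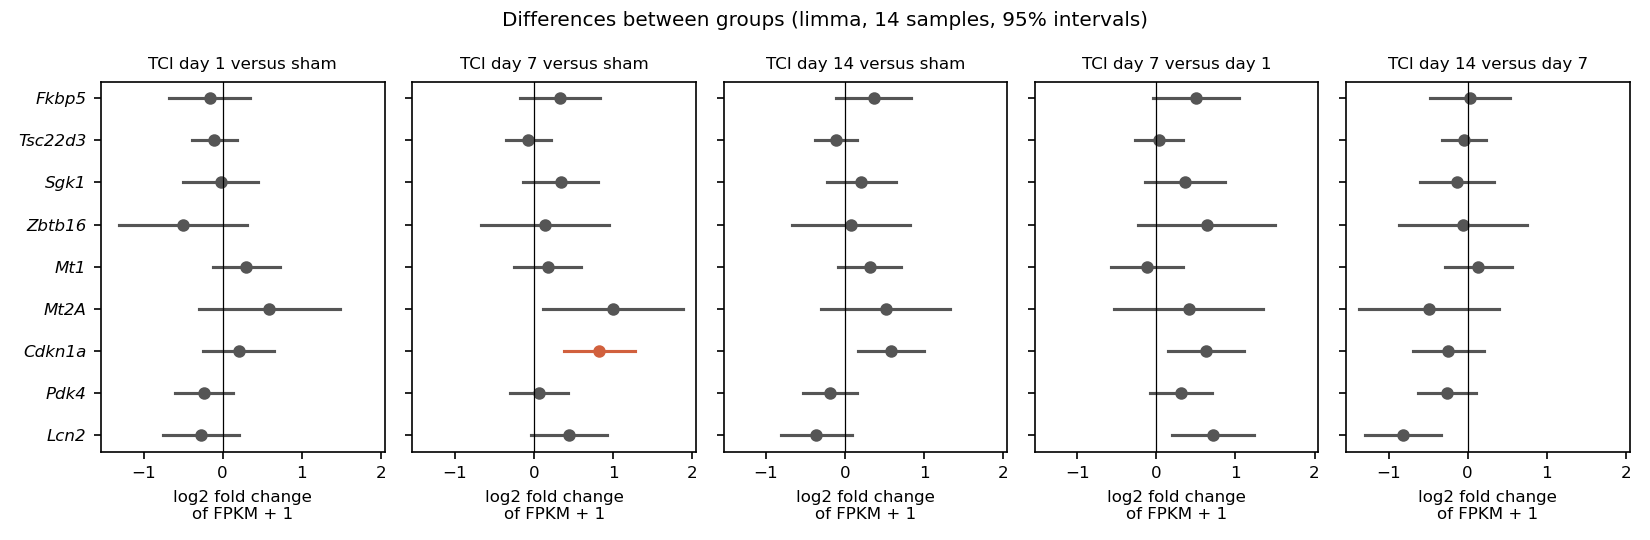
Log2 fold change of FPKM + 1 (points) with its 95% interval (lines) from limma over 14 samples for the 9 tested genes, in 5 panels that compare TCI day 1, 7 and 14 with sham, day 7 with day 1 and day 14 with day 7. The 1 point in color is the called one, Cdkn1a on day 7 against sham, with an interval from 0.38 to 1.28.

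Among the classical receptor targets, Fkbp5 encodes a cochaperone that lowers the receptor's affinity for hormone and so closes a feedback loop. It stood at 6.63, 8.26, 8.30 and 10.78 FPKM in the sham samples, at 8.32, 6.77 and 7.08 FPKM on day 1 and at 9.62, 9.83 and 13.26 FPKM on day 7. On day 14 it was 19.78, 8.52, 9.84 and 8.81 FPKM. All groups overlapped sham, and 1 day 14 sample lay above every other sample of the series. Day 1 gave a log2 fold change of -0.17 (SE 0.23), day 7 of 0.33 (SE 0.23) and day 14 of 0.36 (SE 0.22), with adjusted p of 0.994, 0.375 and 0.292 in limma.

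Tsc22d3 encodes GILZ, a leucine zipper protein that mediates anti-inflammatory actions of glucocorticoids. Its level was 113.10, 116.97, 139.34 and 131.24 FPKM in sham, and 114.76, 110.48 and 123.09 FPKM on day 1. It was 107.55, 126.40 and 123.21 FPKM on day 7, and 150.47, 91.51, 115.21 and 110.44 FPKM on day 14. The groups overlapped throughout. This member had the narrowest intervals of the classical targets, which for days 1, 7 and 14 ran from -0.39 to 0.18, from -0.35 to 0.21 and from -0.38 to 0.15 on the log2 scale.

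Sgk1 encodes a kinase that acts on ion channels and transporters. Sham samples held 12.07, 16.10, 20.79 and 14.39 FPKM of Sgk1, and day 1 samples 13, 15.24 and 18.01 FPKM. Day 7 samples held 18.03, 22.61 and 19.46 FPKM, and day 14 samples 28.89, 17.54, 14.14 and 14.83 FPKM. The day 7 samples lay in and above the upper part of the sham range, and the log2 fold change there was 0.34 (95% interval -0.13 to 0.81).

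Zbtb16 encodes PLZF, a zinc finger transcription factor that glucocorticoids induce in several cell types. Its 4 sham samples spread from 1.18 to 3.43 FPKM (1.18, 1.82, 2.59 and 3.43 FPKM in samples 1 to 4). Day 1 samples held 1.37, 1.10 and 1.23 FPKM, day 7 samples 1.42, 3.09 and 3.20 FPKM, and day 14 samples 6.77, 1.37, 1.4 and 1.73 FPKM. Against this spread no day could be told from sham, and on day 1 the interval reached from -1.30 to 0.31 around a log2 fold change of -0.50.

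The metallothioneins Mt1 and Mt2A are small cysteine-rich proteins that bind zinc and copper. Their genes are switched on by metals through the factor MTF1 and also by glucocorticoids and cytokines. Mt1 and Mt2A, like Cdkn1a, Pdk4 and Zbtb16, were highest in the left-out sample 3 of day 7, where skeletal muscle markers summed to 23015 FPKM. The 250 bases before the start of Mt1 and of Mt2A are shown as a description. They are from the RefSeq promoter table of assembly GRCr8, Mt1 at chr19:10832976-10833225 and Mt2A at chr19:10838709-10838958, both on the minus strand, and capitals mark the core of the metal response element.
Mt1: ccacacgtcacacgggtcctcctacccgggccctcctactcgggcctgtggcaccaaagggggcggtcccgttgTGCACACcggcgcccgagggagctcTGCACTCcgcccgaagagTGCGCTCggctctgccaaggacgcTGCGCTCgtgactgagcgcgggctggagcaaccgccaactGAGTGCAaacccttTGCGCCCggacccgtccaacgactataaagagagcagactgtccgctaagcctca
Mt2A: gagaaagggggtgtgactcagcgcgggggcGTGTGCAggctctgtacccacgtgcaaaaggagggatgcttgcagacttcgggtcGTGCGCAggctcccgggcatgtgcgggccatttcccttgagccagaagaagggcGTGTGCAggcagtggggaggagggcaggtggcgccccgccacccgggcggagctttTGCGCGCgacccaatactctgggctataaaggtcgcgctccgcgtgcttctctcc
The core was searched as TGCGCNC or TGCACNC on both strands in windows of 300 bases, from 250 before to 50 after the start. It occurred 6 times in the window of Mt1 and 4 times in that of Mt2A, and at least once in 24.2% of all 33469 promoters of the table. Of the 10 genes, 9 had an entry there, with 14 windows in all, and the entry missing was that of Zbtb16. Among the other windows, 1 of Hif3a and 1 of Tsc22d3 held the core once. No window of these genes matched, on either strand, the palindromic consensus of the glucocorticoid response element (0.0149% of all promoters) or a looser form that takes in the exact one (0.439%). The consensus NF-kB site (0.362%) and the STAT site TTCNNNGAA (8.87%) had no match either. The matches describe these letters in these windows.

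Mt1 stood at 11.54, 12.82, 16.00 and 14.19 FPKM in sham and at 15.59, 17.14 and 18.02 FPKM on day 1. It was 11.78, 15.12 and 20.46 FPKM on day 7 and 23.28, 18.21, 11.87 and 16.54 FPKM on day 14. Each TCI group overlapped sham, and the largest log2 fold change was 0.31 (SE 0.18) on day 14, with an adjusted p of 0.282 in limma. The left-out samples gave the 2 highest values, 27.39 FPKM in sample 2 of day 1 and 111.79 FPKM in sample 3 of day 7.

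Mt2A had 5.70, 2.59, 5.79 and 3.42 FPKM in sham, 7.61, 5.68 and 7.30 FPKM on day 1, 5.22, 8.19 and 18.47 FPKM on day 7 and 12.50, 2.96, 5.96 and 6.99 FPKM on day 14. Most TCI samples lay above the sham range while each day still overlapped it. On day 7 the log2 fold change was 1.00 (SE 0.41, 95% interval 0.11 to 1.89), with an adjusted p of 0.114 in limma. Without sample 4 of day 7 it was 0.54. Sample 3 of day 7 held 168.36 FPKM of Mt2A, and with it and the other left-out sample the log2 fold change was 2.01 with an adjusted p of 0.0664 in limma. Mt3, the metallothionein of neurons and glia, was far higher, at 386 to 581 FPKM in the 14 samples. It was at 328 FPKM in sample 3 of day 7, lower than in any other sample. Skeletal muscle markers summed to 23015 FPKM in sample 3 of day 7. Its sums of sensory neuron (4529 FPKM) and satellite glia markers (2461 FPKM) were also the lowest of all samples. The part of muscle RNA in the Mt2A and Mt3 levels was not tested. Metallothionein transcripts are short and alike, so fragments may be shared among them in the authors' estimates.

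Cdkn1a stops the cell cycle and is induced by glucocorticoids and by other stress signals. It was 3.09, 3.57, 4.01 and 5.23 FPKM in sham (3.98 ± 0.917 FPKM, SD, n = 4) and 4.08, 5.25 and 4.71 FPKM on day 1 (4.68 ± 0.586 FPKM, SD, n = 3). On day 7 it was 7.62, 7.65 and 7.88 FPKM (7.72 ± 0.142 FPKM, SD, n = 3), and on day 14 7.89, 9.60, 4.96 and 4.25 FPKM (6.68 ± 2.51 FPKM, SD, n = 4). All day 7 samples lay above all sham samples, as they did for 23.8% of all genes, whereas day 14 fell into 2 samples above and 2 within the sham range. The log2 fold change against sham was 0.83 (SE 0.21) on day 7, with an adjusted p of 0.0150 in limma, and 0.58 (SE 0.19) on day 14, with an adjusted p of 0.0594 in limma. Sample 3 of day 7 held 17.43 FPKM, and over all 16 samples the day 7 log2 fold change was 1.10 with an adjusted p of 0.00664 in limma. Macrophage markers were higher on day 7 and day 14 than in sham. The summed FPKM of 9 of them lay between 56.2 and 108 in sham samples, between 74.4 and 89.3 in day 1 samples, between 749 and 1040 in day 7 samples and between 438 and 1525 in day 14 samples. Sample 2 of day 14 had both the highest macrophage sum and the highest Cdkn1a of the 14 samples, whereas samples 3 and 4 of day 14, with sums of 450 and 438 FPKM, held Cdkn1a within the sham range. The used day 7 samples differed little in Cdkn1a (7.62 to 7.88 FPKM), so their order cannot be set against that of the macrophage sums. The left-out sample 3 had the lowest macrophage sum of day 7 (642 FPKM) and the highest Cdkn1a. Its skeletal muscle markers summed to 23015 FPKM, and its sensory neuron markers to 4529 FPKM, the lowest of all samples. The part of macrophage markers in the Cdkn1a levels was not tested.

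Pdk4 encodes the kinase that switches off pyruvate dehydrogenase during fasting. It was 2.69, 2.16, 1.60 and 2.86 FPKM in sham, 2.05, 1.67 and 1.67 FPKM on day 1, 2.45, 2.82 and 2.12 FPKM on day 7 and 2.36, 1.93, 1.09 and 2.31 FPKM on day 14. The groups overlapped throughout, and the log2 fold changes against sham were -0.24, 0.07 and -0.20. Sample 3 of day 7, left out, held 39.17 FPKM.

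Hif3a, a hypoxia-inducible factor subunit that glucocorticoids also raise, was barely expressed. It was listed at 0.08, 0.20, 0.38 and 0.55 FPKM in sham and at 0.14, 0.04 and 0.14 FPKM on day 1. It was at 0.52, 0.56 and 0.55 FPKM on day 7 and at 2.97, 0.14, 0.26 and 0.31 FPKM on day 14. The day 7 samples stood together at the top of the sham range, and 1 day 14 sample lay far above all others.

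Lcn2 encodes lipocalin 2, a siderophore-binding protein of the acute phase response that neutrophils store in granules. Its values were 3.71, 4.63, 4.98 and 4.77 FPKM in sham and 3.91, 3.64 and 3.18 FPKM on day 1. They were 4.43, 5.52 and 10.95 FPKM on day 7 and 2.61, 4.13, 2.59 and 4.01 FPKM on day 14. Every day 14 sample was below every day 7 sample, as for 4.24% of all genes. The log2 fold change from day 7 to day 14 was -0.81 (SE 0.22), with an adjusted p of 0.231 in limma. Against sham it was 0.45 (SE 0.22, adjusted p 0.191 in limma) on day 7. Both rested in part on sample 4 of day 7, without which they were -0.48 and 0.11. Of the 8 neutrophil markers, Mpo was at most 0.14 FPKM and Elane at most 0.08 FPKM in any sample. Their sum lay between 0.79 and 1.20 FPKM in sham samples, between 1.09 and 1.57 FPKM in day 1 samples and between 1.72 and 3.07 FPKM in day 14 samples. On day 7 it was 5.30, 7.80 and 19.9 FPKM in samples 1, 2 and 4 and 13.3 FPKM in the left-out sample 3. This is the order of Lcn2 in these samples (6.69 FPKM in sample 3). S100a8 (0.62, 2.94, 5.05 and 6.82 FPKM in samples 1 to 4) and S100a9 (2.11, 2.59, 6.01 and 10.09 FPKM) made up most of these sums. Both are also on the acute phase list below, and Csf3r (1.84, 1.85, 1.19 and 2.25 FPKM) did not follow this order. On day 14 the order was another, with sums of 3.07, 1.72, 1.97 and 1.88 FPKM in samples 1 to 4, all above the sham sums, while 2 of the 4 Lcn2 values lay below the sham range. The part of these markers in the Lcn2 levels was not tested.

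From day 1 to day 7 most of the 10 genes stood higher without overlap, though none passed the test. All 3 day 7 samples lay above all 3 day 1 samples for 6 of the 9 tested members (Cdkn1a, Fkbp5, Lcn2, Pdk4, Sgk1 and Zbtb16), beside 23.8% of all genes, and the same held for the untested Hif3a. The median log2 fold change of the 9 was 0.41, beside 0.04 over all genes. At an adjusted p of 0.05 limma called 0 of 9 beside 10.4% of all genes, and 2 of 9 (Cdkn1a and Lcn2) had an unadjusted p under 0.05 beside 23.6%. With all 16 samples, 4 of 9 were without overlap (Cdkn1a, Fkbp5, Sgk1 and Zbtb16) beside 15% of all genes. In that fit limma called Cdkn1a (log2 fold change 0.92, adjusted p 0.0247) and Lcn2 (0.66, adjusted p 0.0409), beside 13% of all genes. From day 7 to day 14 the call count was 0 of 9 beside 0.0998% of all genes, and Lcn2 was the 1 member with an unadjusted p under 0.05, beside 9.96%. Day 1 and day 7 samples are shared with the comparisons against sham.

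A single day 14 animal stood apart in the receptor targets. Sample 1 of day 14 held at least 1.5 times the level of every other day 14 sample for 5 of the 10 members (Fkbp5, Sgk1, Zbtb16, Mt2A and Hif3a), beside 0.838% of 14087 genes tested over the 16 samples. Against the median of the other 3 it was 2.25 times as high for Fkbp5, 1.95 for Sgk1, 4.84 for Zbtb16, 2.10 for Mt2A and 11.4 for Hif3a, and 1.36 times for Tsc22d3. Cdkn1a, Pdk4, Lcn2 and Mt1 did not stand apart in that sample by this measure.

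The same sample stood out in some of the other glucocorticoid-induced genes. Of 28 tested genes of that list, 6 passed the 1.5-fold mark there, beside 0.838% of all genes. They were Cd163, Ddit4, Errfi1, Klf15, Map3k6 and Per1, named after their values were seen. Others were near the median of the other day 14 samples, such as Cebpd (0.97 times), Tgm2 (0.95 times) and Mfsd2a (1.01 times). Per1, a clock gene that glucocorticoids induce directly, was 22.46 FPKM against 8.41 to 10.70 FPKM in the other day 14 samples. Ddit4, an inhibitor of mTOR signaling, was 77.23 FPKM against 32.54 to 48.39 FPKM. Klf9 was 24.19 FPKM against 14.91 to 17.42 FPKM, while Dusp1 was 8.39 FPKM against 7.29 to 11.64 FPKM. The clock genes Dbp (26.55 against 19.58 to 22.42 FPKM) and Nr1d1 (22.22 against 14.83 to 30.59 FPKM), looked up after seeing these values, lay just above and within the range of the other day 14 samples. The 10 skeletal muscle markers summed to 21.0 FPKM in this sample, the highest sum of the day 14 group. Without this sample the day 14 log2 fold change of Zbtb16 was -0.33 rather than 0.08 that of Sgk1 -0.01 rather than 0.21, that of Fkbp5 0.098 rather than 0.36 and that of Mt2A 0.22 rather than 0.51, and no member was called on day 14 in either fit.

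The same clock gene Dbp, which oscillates through the day, differed between groups and within sham. It was 34.15 to 48.51 FPKM in the 4 day 1 samples, the left-out sample 2 included, and 6.89 to 26.13 FPKM in sham, without overlap. Nr1d1 did not overlap either (26.14 to 28.97 and 5.89 to 19.13 FPKM). Arntl, another clock gene looked up after seeing the values, did overlap (3.10 to 4.23 and 3.20 to 6.34 FPKM). The share of all genes without overlap is not given for day 1 against sham, where limma called 0% of all tested genes. Within sham, sample 1 had the highest Dbp (26.13 FPKM) and the lowest Fkbp5 and Zbtb16, and sample 4 the lowest Dbp (6.89 FPKM) and the highest Fkbp5 and Zbtb16. Sample 1 of day 1 likewise had the lowest Dbp (34.15 FPKM) and the highest Fkbp5 and Zbtb16 of its group. On day 7 and day 14 the highest values went together instead. Sample 4 had the highest Dbp (22.20 FPKM), Fkbp5 and Zbtb16 of the used day 7 samples. Sample 1 of day 14 had the highest Dbp (26.55 FPKM), Fkbp5 and Zbtb16 of its group. The hour of sampling is not given in the labels, and its part in the levels of the 10 genes was not tested.

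**Figure D3:**
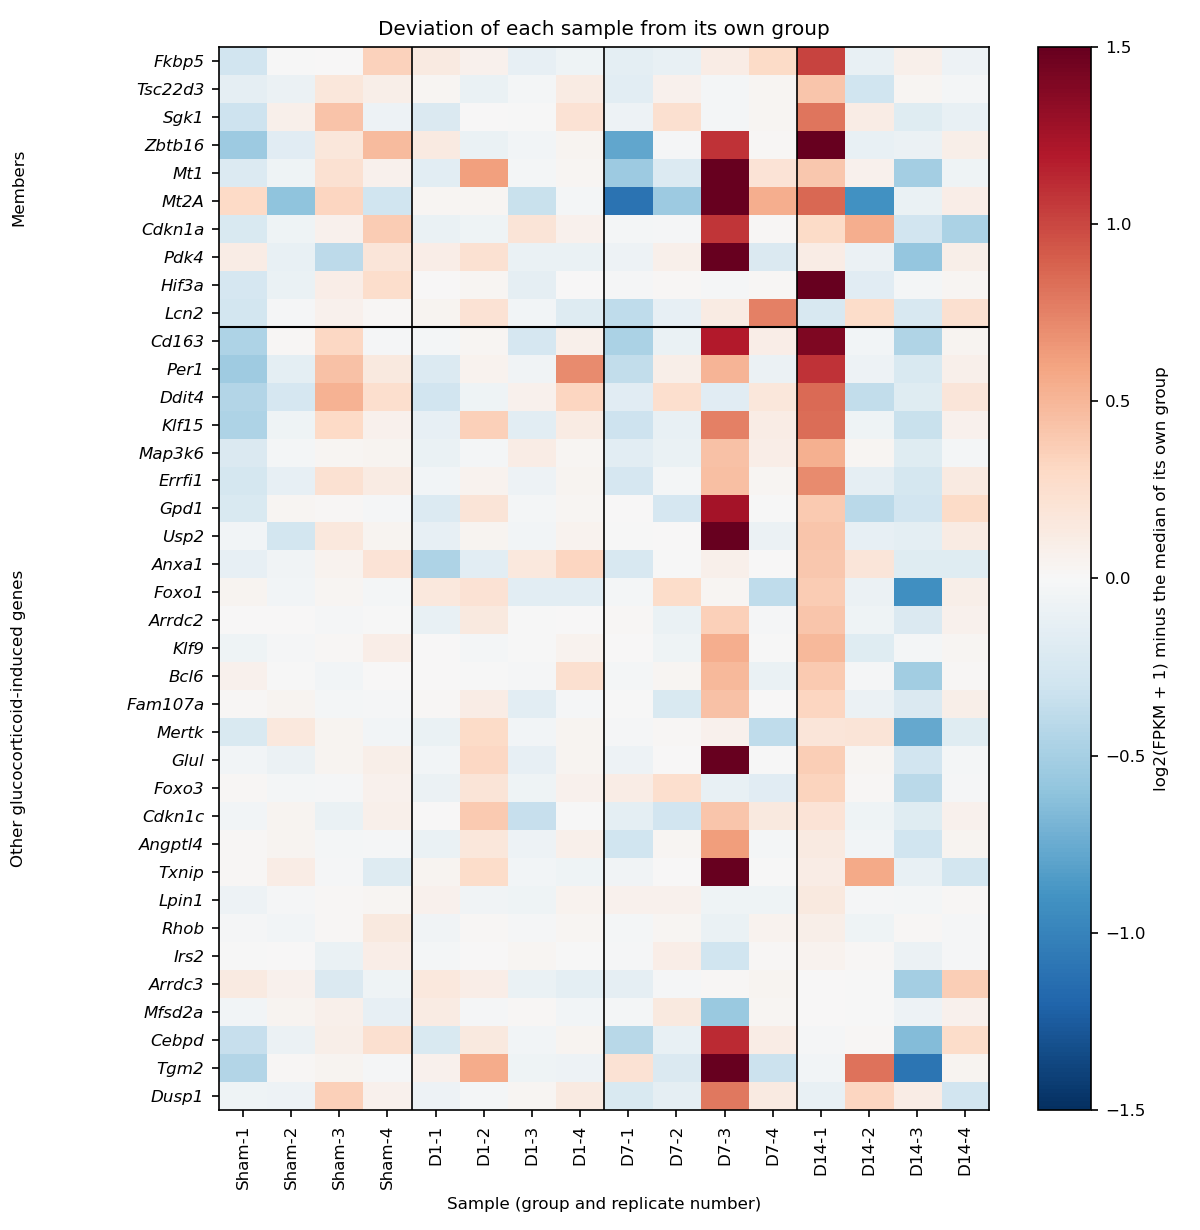
Deviation of each sample from the median of all 4 samples of its group, as log2 of FPKM + 1 with the color scale ending at 1.5 in both directions, for the 10 members (upper rows) and the other tested glucocorticoid-induced genes (lower rows), with 1 column per sample. Sample 1 of day 14 is high across Fkbp5, Zbtb16, Hif3a, Sgk1 and Per1, and sample 3 of day 7 across Mt1, Mt2A, Pdk4 and Cdkn1a.

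Sample 3 of day 7 was high in a set that overlapped in part with that of sample 1 of day 14. Mt2A, Zbtb16, Cd163 and Klf15 passed the 1.5-fold mark in both samples. In sample 3 of day 7 it was passed by Cdkn1a, Mt1, Mt2A, Pdk4 and Zbtb16, 5 of the 10 members. There 10 of the 28 other glucocorticoid-induced genes passed it too, beside 5.55% of all genes. The level was 20.6 times the median of the other day 7 samples for Mt2A, 16.0 times for Pdk4, 7.39 times for Mt1, 2.52 times for Zbtb16 and 2.28 times for Cdkn1a. Fkbp5 (1.19 times), Tsc22d3 (0.956 times) and Sgk1 (0.954 times) were near the others. The 10 skeletal muscle markers summed to 23015 FPKM in this sample, with Acta1 at 6693 FPKM and Ckm at 3628 FPKM. In the other 15 samples the sum was 9.47 to 21.0 FPKM, except for 513 FPKM in sample 4 of the sham group. That sham sample was the highest of its group for Fkbp5, Zbtb16, Cdkn1a, Pdk4 and Hif3a, but not for Mt1 (14.19 FPKM) or Mt2A (3.42 FPKM). The part of muscle RNA in these levels was not tested.

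Across the 14 samples Fkbp5, Zbtb16 and Hif3a, which stood apart in sample 1 of day 14, were the members most alike. Pearson's r of log2(FPKM + 1) was 0.93 between Fkbp5 and Hif3a, 0.90 between Zbtb16 and Hif3a and 0.88 between Fkbp5 and Zbtb16. Without that sample these were 0.84, 0.84 and 0.74. Sgk1 and Mt2A, which also passed the 1.5-fold mark there, had lower values with these genes, 0.67 to 0.77 and 0.45 to 0.53. Tsc22d3, which did not pass it, had 0.78 with Zbtb16. Mt1 and Mt2A had an r of 0.56 (0.45 without sample 1 of day 14). Samples of 1 group share a treatment and a day, and these values are a description. Over all tested genes with a mean of at least 5 FPKM, the likest to Sgk1 was Per1 (r = 0.91), to Tsc22d3 Ddit4 (r = 0.86) and to Fkbp5 Slc7a5 (r = 0.84). Without sample 1 of day 14 these were 0.85, 0.80 and 0.61. Each was the highest r of 9536 genes. Those likest to Zbtb16 and Hif3a were both Fkbp5, and the gene likest to Cdkn1a was Mkl1 (r = 0.94).

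The rest of the pathway was read from 7 gene lists, in each of which limma called 0 genes on day 1 and at most 2 at an unadjusted p under 0.05. Of 15 tested genes of the receptor and its chaperones, 1 rose on day 7 and 1 on day 14, in both cases Nfkbia, the inhibitor of NF-kB, with a log2 fold change of 0.96 (SE 0.21, adjusted p 0.00657 in limma) on day 7. The cochaperones Fkbp4 (-0.23, SE 0.07) and Stip1 (-0.19, SE 0.05) fell on day 14, with adjusted p of 0.0373 and 0.0295 in limma, beside calls for 17.9% of all genes on day 7 and 15.1% on day 14. Both calls were lost over all 16 samples, without sample 1 of day 14 and without sample 4 of sham, while that of Nfkbia held. The receptor itself, Nr3c1, was not called, with log2 fold changes of 0.13 (95% interval -0.12 to 0.39) on day 7 and -0.03 (-0.26 to 0.21) on day 14. Nor was the mineralocorticoid receptor Nr3c2 (0.13 on day 7 and 0.04 on day 14) or Hsd11b1, which regenerates active hormone inside cells (-0.06 and 0.01).

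Of the 28 other glucocorticoid-induced genes, 7 rose and 1 fell on day 7, and 2 rose and 1 fell on day 14, beside calls for 17.9% and 15.1% of all genes. Over all 16 samples 10 rose and 2 fell on day 7, and 0 rose and 1 fell on day 14, and without sample 1 of day 14 10 rose and 1 fell on day 7. Tgm2, a transglutaminase that is also high in macrophages (log2 fold change 1.38, SE 0.31), Cd163, a macrophage scavenger receptor (1.28, SE 0.34), and Cebpd, an inflammatory transcription factor (1.18, SE 0.20), rose most on day 7, with adjusted p of 0.00862, 0.0203 and 0.00123 in limma. Cd163 is also one of the macrophage markers whose sum is given above. The list's median log2 fold change was 0.17 on day 7 and 0.02 on day 14, beside 0.04 and 0.03 over all genes. Per1 (0.37 on both days, SE 0.31 and 0.29), Klf9 (-0.07 and -0.01) and Dusp1 (0.16 and 0.04) did not pass the test on day 7 or day 14.

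**Figure D4:**
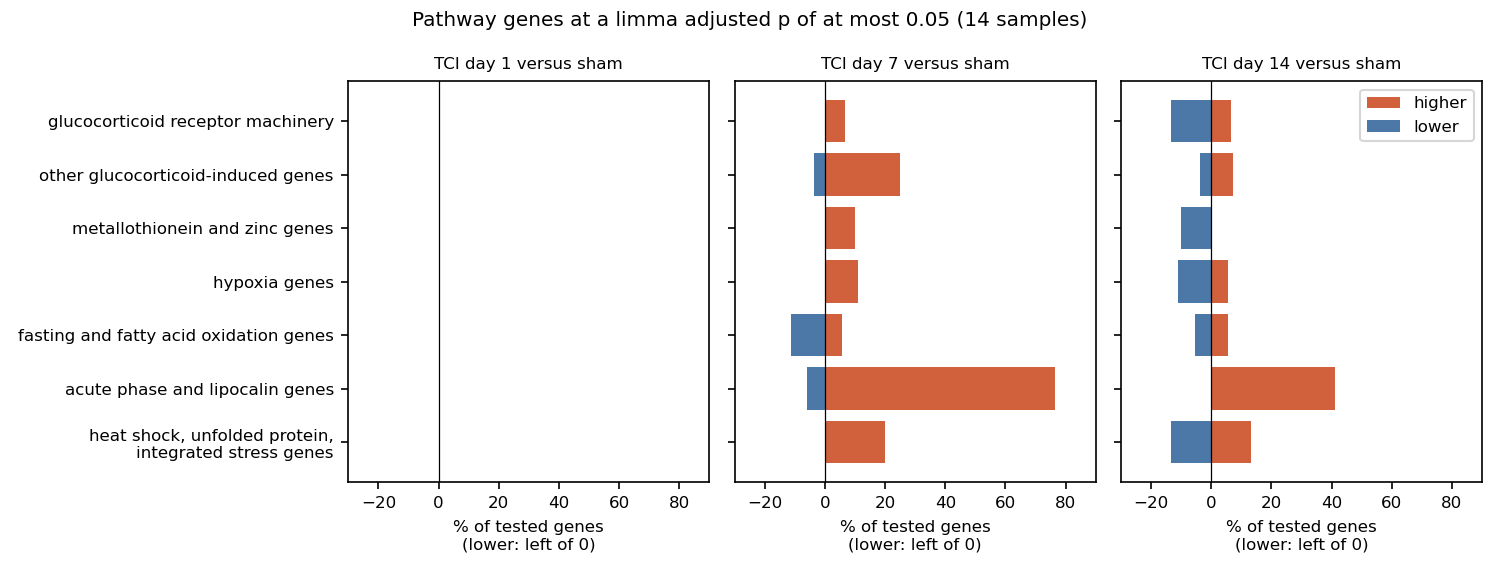
Percent of the tested genes of 7 lists that limma called at an adjusted p of at most 0.05 against sham, over 14 samples, with 1 panel each for TCI day 1, day 7 and day 14. Bars to the right of 0 are genes called higher and bars to the left genes called lower. The day 1 panel is empty, and the acute phase list has the longest bars, with 13 of 17 genes higher on day 7 and 7 of 17 on day 14.

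Of 10 metallothionein and zinc genes, 1 rose on day 7, the zinc importer gene Slc39a1 (0.36, SE 0.10), and 1 fell on day 14, Slc39a10 (-0.34, SE 0.10), a share below the 17.9% and 15.1% of all genes. The call of Slc39a10 was lost over all 16 samples and without sample 4 of sham. Mt3 was not called (-0.07 and -0.09).

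Of 18 hypoxia genes, Adm and Slc2a1 rose on day 7, Ankrd37 rose on day 14, and P4ha1 and Vhl fell on day 14, beside calls for 17.9% and 15.1% of all genes. Without sample 4 of sham the call of Vhl was lost, and over all 16 samples that of Slc2a1. Adm, the gene for adrenomedullin, had a log2 fold change of 0.90 (SE 0.16), and Hif1a stood at 0.05 on day 7 and 0.00 on day 14. Among 18 genes of fasting and fatty acid oxidation, Ucp2 rose and Cpt1a fell on both days, beside the same 17.9% and 15.1%, and Pdp1, the phosphatase that opposes the Pdk enzymes, fell on day 7 (-0.18, SE 0.06, adjusted p 0.0498 in limma). Over all 16 samples the calls of Ucp2 on both days, of Cpt1a on day 14 and of Pdp1 were lost, and that of Pdp1 also without sample 1 of day 14 or sample 4 of sham.

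Of 17 acute phase genes, 13 rose and 1 fell on day 7, and 7 rose on day 14, beside calls for 17.9% and 15.1% of all genes. On day 7 and day 14, 12 and 5 rose without sample 1 of day 14, and 11 and 5 without sample 4 of sham. Over all 16 samples 14 and 6 of 18 tested genes rose. C3, the central complement component, had a log2 fold change of 3.57 (SE 0.38) on day 14. Cp, the copper carrier ceruloplasmin, had 2.06 (SE 0.26) on day 7 and S100a9 2.20 (SE 0.36), with adjusted p of 0.00022, 0.00027 and 0.00109 for the 3 genes in limma. The gene that fell was Slc22a17, which encodes a receptor for lipocalin 2 (-0.21, SE 0.07, on day 7), a call that was lost without sample 4 of sham. Of 15 heat shock, unfolded protein and integrated stress genes, 3 rose on day 7 (Gadd45b, Nupr1 and Xbp1). On day 14, 2 of them rose (Gadd45b and Nupr1) and 2 fell (Dnajb1 and Hsph1). The call of Hsph1 was lost over all 16 samples and without sample 4 of sham, and that of Gadd45b on day 7 without the latter. Nupr1, a stress-induced chromatin regulator, had a log2 fold change of 1.67 (SE 0.18) on day 7. Genes of these counts beyond the 3 largest changes of a list are named because the counts are small, after their values were seen.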

How the data were processed

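RNA of 16 rat DRG samples was sequenced on the BGISEQ-500 according to the study's methods, while the labels name Illumina library protocols. The authors used HISAT and Bowtie2 for mapping and RSEM for quantification, and deposited FPKM values with 2 decimals, 1 table per sample. The submitters' processing notes also list CASAVA 1.4. Genome build, annotation and read totals are not given in the sources used here, and no counting error was computed. Relative depth, read from the smallest values of 66 genes, was 0.905 to 1.15, and at most 2.78% of the values were identical between any pair of samples. From the FPKM, log2(FPKM + 1) was computed. Genes that reached 1 FPKM in 3 or more samples were fitted in limma 3.58.1 (R 4.3.3), all 4 groups together, with a trended eBayes variance and Benjamini-Hochberg adjustment over all 14023 genes. A gene was called at an adjusted p of at most 0.05, and the study's cut-offs (log2 fold change of at least 1, adjusted p of at most 0.001) were an alternative. Fold changes are on the log2(FPKM + 1) scale, which understates changes of low genes. Each sample is 1 rat, so p-values measure the spread between rats. The code was tested on simulated data. Figures were drawn with matplotlib 3.10.9. The 10 genes, 7 pathway lists and 11 marker lists were chosen with earlier results of these data known, and another list is not reported here. Named were the 10 genes, up to 3 called genes with the largest change per list, a few fixed genes, and the genes likest to a member. The numbers shared between groups mark different rats and were not used as pairs.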

Additional observations from a re-analysis of the deposited data

Results flagged for a closer look

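In 9 of the 40 groups of 4 samples (10 genes in 4 groups, left-out samples included), the highest or the lowest sample stood apart from the other 3 by a gap that, as a part of the group's range, exceeded Dixon's critical value at the 95% level. About 1 in 20 would do so by chance for independent, normally distributed values. These groups share rats between genes and hold FPKM without a log, so the count cannot be set against that share. Of these, 3 were sample 1 of day 14, with Fkbp5 at 19.78 FPKM, Zbtb16 at 6.77 FPKM and Hif3a at 2.97 FPKM. Another 4 were the left-out sample 3 of day 7, with Mt1 at 111.79 FPKM, Mt2A at 168.36 FPKM, Cdkn1a at 17.43 FPKM and Pdk4 at 39.17 FPKM. The remaining 2 were low values of sample 3 of day 1, Mt2A at 5.68 FPKM and Hif3a at 0.04 FPKM. The genes were named in the report with the values of all samples of each group.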

How the results depend on the processing

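FPKM without read totals, 3 or 4 rats a group and a sham group of day 14 alone limit these results. The call of Cdkn1a on day 7 held in every setting at an adjusted p of at most 0.05 in limma (log2 fold change 0.68 to 1.10, adjusted p 0.000528 to 0.0468), and at the study's cut-offs 0 members were called on day 7. Apart from those cut-offs, the settings called 12.3% to 32.8% of all genes on day 7. Leaving out 1 sample at a time gave 0 to 1 called members on day 14 against sham. The 1 was Cdkn1a, without sham sample 4 (0.70, adjusted p 0.0421 in limma), without sample 3 (0.69, 0.0355) or without sample 4 of day 14 (0.75, 0.0152). For day 7 against day 1 it gave 0 to 1, while all 16 samples, a fit of these 2 groups alone and sample weights each gave 2, and all 16 samples except sample 1 of day 14, chosen after seeing the data, gave 4 (Cdkn1a, Fkbp5, Lcn2 and Zbtb16).

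Signs turned only for log2 fold changes that were not called. Leaving out 1 sample gave -0.14 to 0.11 for Sgk1 on day 1 and -0.0093 to 0.34 on day 14, -0.12 to 0.00087 for Tsc22d3 on day 7, -0.036 to 0.40 for Zbtb16 on day 7 and -0.33 to 0.24 on day 14, -0.019 to 0.35 for Mt1 on day 7 and -0.043 to 0.15 for Pdk4 on day 7. Sample weights gave 0.017 for Sgk1 on day 1. Quantile normalization gave -0.081 for Zbtb16 and -0.16 for Pdk4 on day 7 and -0.061 for Zbtb16 on day 14, and median centring gave -0.040 for Pdk4 on day 7. All 16 samples except sample 1 of day 14 gave -0.0093 for Sgk1 and -0.33 for Zbtb16 on day 14. The value of Lcn2 between day 14 and day 7 without sample 4 of day 7 was added after seeing the data. The cause was not tested, except that the settings without a sample hold fewer samples.

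Sample numbers shared between groups did not mark pairs. Deviations from the group means correlated at -0.095 to 0.269 between the 18 pairs of samples with the same number. A block for the number gave -0.029 for Pdk4 on day 7 and kept the call of Cdkn1a there (0.81, adjusted p 0.0405 in limma).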
